A study of Mus musculus with 4 samples.

Results

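A set of 10 genes of liver-resident and scavenging macrophages was followed through 4 droplet single-cell RNA libraries of mouse liver. They were Clec4f, Vsig4, Timd4, Cd5l and Marco, called resident genes here, and Axl, Mertk, Mrc1, Stab1 and Cd38, called scavenging genes here. They were picked by symbol, and all 10 of 10 were found among the 32285 rows of each count table. The libraries were 2 Control and 2 Cyr61 KO livers from males, 24 weeks old, kept for 12 weeks on a NASH diet (one that induces fatty liver inflammation). Every mouse, Control included, was of the strain Cyr61fl/fl, in which the gene of the matrix protein CYR61 is flanked by recombination sites. The labels name neither the promoter of a recombinase, nor the cells that lost the gene, nor whether a library came from 1 animal, and any p-value covers only how these libraries vary, which may be technical. Livers had been stored frozen in serum with DMSO, thawed, digested and passed over a column that takes out dead cells. The question was whether any cell in these livers carried a Kupffer cell programme, in which cells the 10 genes were detected, and whether they differed between KO and Control.

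Kupffer cells are the macrophages that live in the liver sinusoids and clear particles, bacteria and dying cells from the blood. In mice they are told from recruited macrophages by the lectin Clec4f, the complement receptor Vsig4 and, in cells of embryonic origin, the phosphatidylserine receptor Timd4. When Kupffer cells die during steatohepatitis, monocytes enter the niche, and they gain Clec4f and Vsig4 before Timd4. Cd5l encodes a secreted protein that binds lipids and is made by resident macrophages of several tissues, and Marco a scavenger receptor for bacteria and particles. Axl and Mertk are receptor tyrosine kinases that bind Gas6 on dying cells, and Mertk also binds Pros1. Mrc1 is the mannose receptor, Stab1 is an endocytic receptor shared with sinusoidal endothelium, and Cd38 is a membrane enzyme that degrades NAD, also well known from B cells.

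The sequences upstream of 3 resident genes are shown because their transcripts turned up in the same barcodes. They are the 250 bases before the annotated start, from RefSeq (GRCm38.p6), 5′ to 3′ on the strand of the gene. Capitals mark TGCTGANNTCAGCA, the spaced palindrome bound by MAF proteins, and GAGGAA or its complement TTCCTC, the core bound by the myeloid factor PU.1.
Cd5l, chr3:87357631-87357880, plus strand: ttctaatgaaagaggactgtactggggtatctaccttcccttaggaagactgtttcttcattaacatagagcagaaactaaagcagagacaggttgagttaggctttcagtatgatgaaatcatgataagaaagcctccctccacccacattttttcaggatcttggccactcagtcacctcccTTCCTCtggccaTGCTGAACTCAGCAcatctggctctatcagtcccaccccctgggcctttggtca
Vsig4, chrX:96293439-96293688, minus strand: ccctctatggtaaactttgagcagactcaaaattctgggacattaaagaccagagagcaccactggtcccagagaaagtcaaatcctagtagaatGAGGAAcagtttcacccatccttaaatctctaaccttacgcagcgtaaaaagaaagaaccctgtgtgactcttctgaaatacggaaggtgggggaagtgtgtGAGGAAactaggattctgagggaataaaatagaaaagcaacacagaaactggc
Clec4f, chr6:83656117-83656366, minus strand: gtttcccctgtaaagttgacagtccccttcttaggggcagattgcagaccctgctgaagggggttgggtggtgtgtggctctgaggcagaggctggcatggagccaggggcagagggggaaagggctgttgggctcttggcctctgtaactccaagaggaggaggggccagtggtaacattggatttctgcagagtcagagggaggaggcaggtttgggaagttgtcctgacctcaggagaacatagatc
The MAF palindrome began 54 bases before the start of Cd5l, and 2 of 32851 mouse promoters of the same length (0.00609%) held it on either strand. The same palindrome with a spacer of 1 letter, TGCTGANTCAGCA, was in 2 promoters and in 0 of the 10. Its arm TGCTGA alone, which also lies within each palindrome, was in 16.1% of promoters and in 4 of the 10 (Cd5l, Clec4f, Stab1 and Timd4). The PU.1 core was in 23.3% of promoters and in 6 of the 10, with matches 155 and 53 bases before Vsig4 and 66 bases before Cd5l. AGGTCA, an arm bound by nuclear receptors, was in 14.0% of promoters, and in Clec4f and Timd4 among the 10. These are letter matches, searched with the sequences in view, and no measured binding. On GRCm38 the genes lie on chromosomes 3 (Cd5l), X (Vsig4), 6 (Clec4f), 11 (Timd4), 1 (Marco), 7 (Axl), 2 (Mertk and Mrc1), 14 (Stab1) and 5 (Cd38). All are annotated as protein-coding, and Cd38 is tagged as overlapping another locus, so some of its reads could belong there.

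Barcodes numbered 4852 and 7253 for Control and 7241 and 5373 for KO, with total UMIs (captured transcripts) from 8290677 to 20537236. Control 1 was the shallowest, with a median of 1225 UMIs per kept cell against 1913 to 2869 in the others. For the targeted gene, listed as Ccn1, UMIs numbered 184 (Control 1), 149 (Control 2), 0 (KO 1) and 12 (KO 2). Library pairs shared 6 to 22 barcode sequences, at most 0.304% of the smaller library, with 0 identical profiles. Kept cells were sorted into classes by markers that exclude the 10 genes, with at least 2 markers of a class required. Barcodes with markers of different lineages were set apart as mixed, and 4499 of 24030 kept cells entered no class. The C1q gate (C1qa, C1qb and C1qc, complement genes of tissue macrophages) took 109 and 58 Control and 10 and 4 KO cells. The monocyte gates took 253 and 315 Control and 238 and 128 KO cells, mostly classical (markers such as Ccr2 and F13a1) beside patrolling ones (Ear2, Adgre4).

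Transcripts of the resident genes were scarce in Control and nearly absent in KO. Over all barcodes, Clec4f had 4 UMIs in Control 1, 7 in Control 2 and 0 in either KO library. Vsig4 had 9 and 26 UMIs in Control, against 1 and 0 in the KO libraries. Cd5l had 22 and 24 UMIs in Control, against 1 and 0 in the KO libraries. For these 3 genes each Control library stood above each KO library. The order alone supports no difference, as an exact permutation test of 2 against 2 libraries cannot go below p = 0.333. The share of all genes that separate in this way was not counted. By another and stricter measure, an edgeR adjusted p below 0.05, 7.08% of 14327 genes were lower in KO in whole libraries. That share is no background for the order of the libraries. As CPM (UMIs per 1000000 UMIs of the library or class), Clec4f stood at 0.482 and 0.341 and Cd5l at 2.65 and 1.17 in Control. Marco had 2 and 6 UMIs in Control and 0 in either KO library, and Timd4 had 2 and 1 in Control and 0 in either KO library. A count of 0 allows up to 0.175 CPM in KO 1 and 0.167 CPM in KO 2, taken as 3 counts, and Timd4 in Control 2 lay under that at 0.0487 CPM. Timd4 thus showed no difference detectable at this depth. Clec4f in Control stood at 4.47-fold the level of 3 counts over the KO libraries, from 11 UMIs. The lower end of its counting interval was 3.06-fold. Of these 11 UMIs, which lay in 5 barcodes, 6 lay in 1. Such limits take the observed UMIs as exact and independent, and all intervals on counts cover counting error only.

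**Figure D1:**
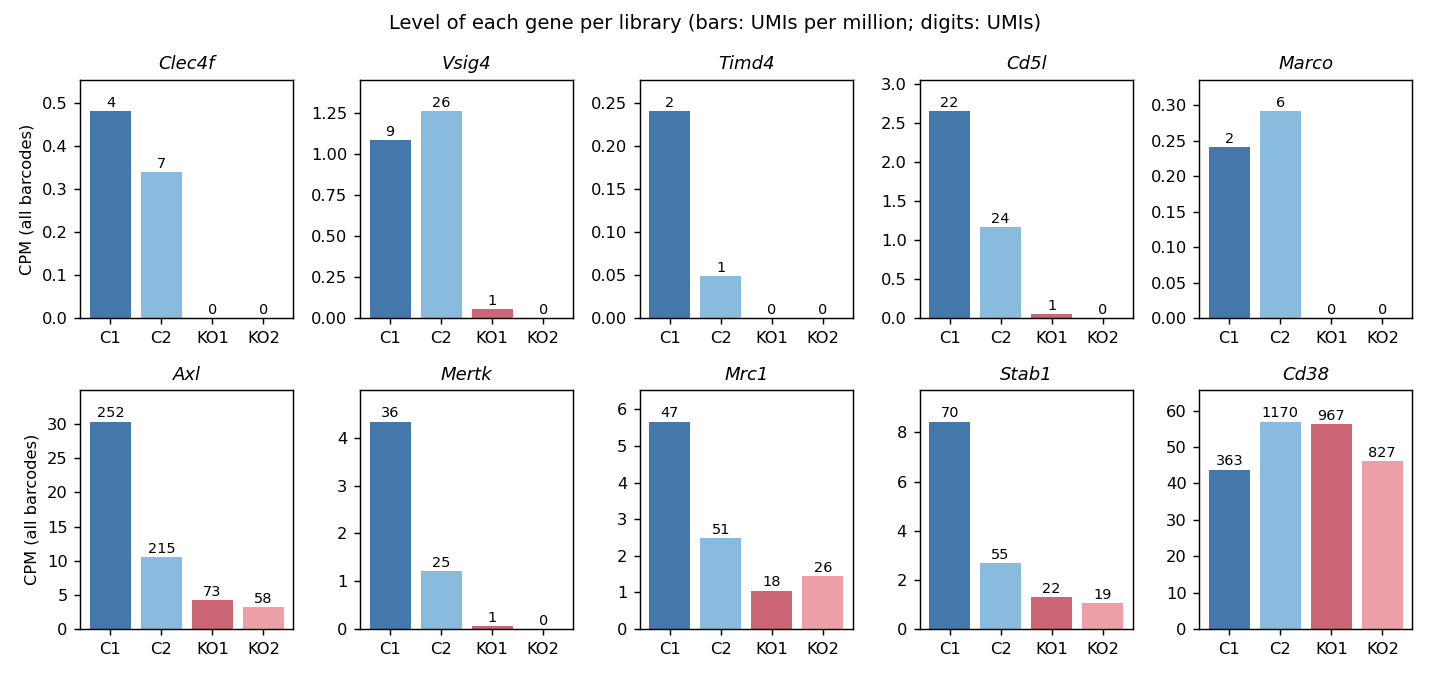
Level of each of the 10 genes over all barcodes of a library, in CPM (bars), with the number of UMIs above each bar; C1 and C2 are Control, each panel has its own scale starting at 0. The 5 resident genes of the upper row held 0 or 1 UMI in each KO library, while Cd38 stood between 43.8 and 57.0 CPM in all 4.

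The resident transcripts lay mostly in C1q-gated cells, the class made of tissue macrophage complement genes. The C1q gate held 181 of 24030 kept cells but 8 of 11 Clec4f UMIs (72.7%), 32 of 36 Vsig4 UMIs (88.9%), 35 of 46 Cd5l UMIs (76.1%) and 6 of 8 Marco UMIs (75%). The monocyte gates held 0 UMIs of Clec4f, Vsig4 and Marco, and 1 of Cd5l. Timd4 had 0 UMIs in C1q-gated cells. Its 3 UMIs were in 2 barcodes without a class and in 1 dendritic cell of the Cd209a type (cDC2). Outside the C1q gate, resident genes came as 1 or 2 UMIs per barcode, in T, B, neutrophil, classical monocyte, cDC2, mixed and ungated barcodes.

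**Figure D2:**
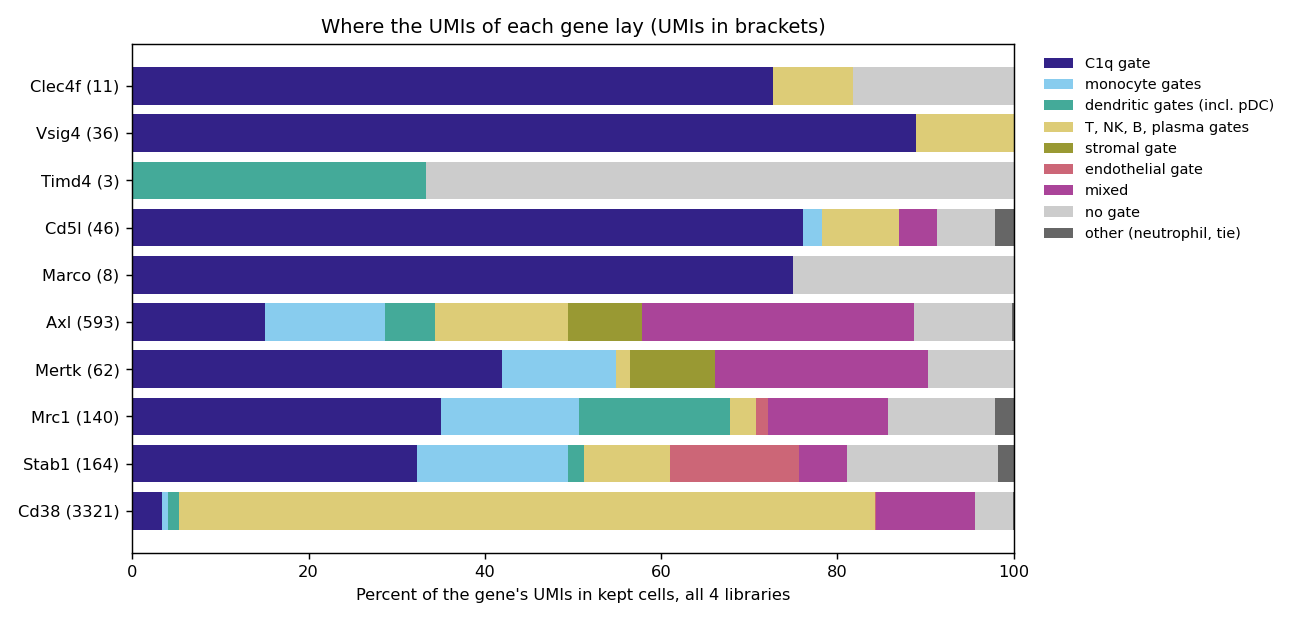
Share of each gene's UMIs in kept cells that lay in each class, all 4 libraries together, with the number of UMIs in brackets. Clec4f, Vsig4, Cd5l and Marco lay mostly in the C1q gate, 56.4% of Cd38 in B cells, and 30.9% of Axl in mixed barcodes.

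Few C1q-gated cells carried a resident gene. In Control 1, 9 of 109 C1q-gated cells held at least 1 of the 5 genes (8.26%, exact binomial 95% interval 3.85 to 15.1%). In Control 2 it was 6 of 58 (10.3%, exact binomial interval 3.89 to 21.2%). In KO 1 it was 1 of 10 cells and in KO 2 0 of 4, and with so few cells the KO share had an upper bound of 44.5% and 60.2%. As a background from cells that should lack these genes, 5 of 2694 T cells of Control 2 held 1 (0.186%, exact binomial interval 0.0603 to 0.433%), at a median of 2936 UMIs per T cell against 2590.5 per C1q-gated cell. In Control 1 it was 0 of 1450 T cells (exact binomial upper end 0.254%), at medians of 1511.5 and 1623 UMIs. Thinned to 1000 UMIs per cell, 2 of 78 C1q-gated cells of Control 1 and 5 of 52 of Control 2 held 1 or more. The thinning left out 31 and 6 shallower cells. Most C1q-gated cells, 152 of 167 in Control, thus held no UMI of any resident gene at this depth, which does not show that they lacked the transcripts.

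In all, 6 barcodes held at least 2 of the 5 resident genes, 2 in Control 1 and 4 in Control 2, or 0.0424% (exact binomial interval 0.00513 to 0.153%) and 0.0564% (0.0154 to 0.144%) of kept cells. KO 1 and KO 2 had 0 of 7157 and 0 of 5065, with exact binomial upper ends of 0.0515% and 0.0728%. With these small numbers the libraries overlap within counting error. Of the 6, 5 passed the C1q gate and 1 entered no class. None held Timd4. From a list of 15 other Kupffer cell genes each barcode held 1 to 5, with Cd81 in 5 of the 6, Sdc3 in 4, Hmox1 in 3, Folr2 in 2, and Slc40a1, Vcam1, Fabp7 and Nr1h3 in 1 each. Clec1b, Spic, Cd163, C6, Id3, Kcna2 and Slc16a9 were at 0 in all 6. Thinned to 1000 UMIs, 1 barcode, of Control 2, still held 2 or more.

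The UMIs of the 6 barcodes did not show 1 common pattern, and their depth ran from 935 to 19308 UMIs. The fullest resident pattern was in Control 2 cell 4, with 1595 UMIs in all, of which 6 were Clec4f, 5 Vsig4 and 10 Cd5l. It also had 31 UMIs of the C1q genes, 2 of Fabp7 and 1 of Folr2, a folate receptor of resident macrophages, and 0 of all 5 scavenging genes. Control 1 cell 2 was the other barcode with Clec4f and a second resident gene, with 2 Clec4f and 4 Cd5l UMIs among 935. It had 2 UMIs of Slc40a1, the iron exporter of cells that recycle red blood cells, and again 0 of the scavenging genes. Both barcodes with Clec4f were shallow. Pooled Control C1q-gated cells held the scavenging genes at only 49.5 (Mertk) to 208 CPM (Cd38), so these zeros do not show absence. Control 2 cell 3 was deep, with 19308 UMIs, and held 11 Vsig4 and 4 Marco UMIs, all 5 scavenging genes and 0 Clec4f and Cd5l. It also held 117 UMIs of Spp1, a gene of lipid-associated macrophages. Control 2 cell 2 had 1 Vsig4 and 5 Cd5l UMIs beside 4 of Axl, 3 of Cd38, 1 of Mrc1 and 4 of Vcam1. Control 2 cell 1, without a class, had 1 Cd5l, 2 Marco and 1 Stab1 UMIs and only 2 of the C1q genes. Hepatocyte Alb had at most 2 UMIs in each of the 6, and the endothelial genes Stab2 and Cdh5 had 0.

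**Figure D3:**
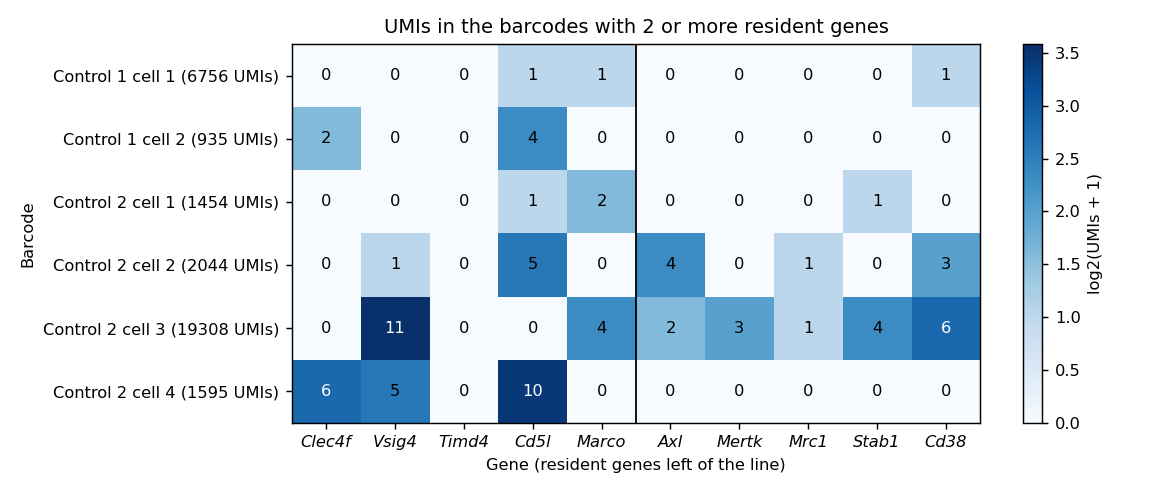
UMIs of the 10 genes (columns) in the 6 barcodes with at least 2 resident genes (rows, total UMIs in brackets), shaded by log2(UMIs + 1). Clec4f is present in 2 barcodes and Timd4 in 0. The barcodes with Clec4f hold no UMI of a scavenging gene, but at 935 and 1595 UMIs they are too shallow to show absence.

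Some of the Cd5l-bearing cells carried genes of peritoneal macrophages, which also express Cd5l. Control 1 cell 1, with 1 UMI each of Cd5l and Marco, held 7 UMIs of Prg4, 3 of Alox15, 2 of F5 and 1 of Gata6, the factor that defines large peritoneal macrophages. A further C1q-gated Control 1 cell, with 7 Cd5l UMIs and no other resident gene, had 12 UMIs of Prg4 and 1 each of Gata6, F5, Selp and Icam2. Another with 2 Cd5l UMIs had 8 of Alox15 and 1 each of Prg4, F5 and Icam2. The only KO C1q-gated cell with a resident gene, with 1 Cd5l UMI, had 3 UMIs of F5 and 2 each of Prg4 and Icam2. Leaving out Laptm5, which nearly all leukocytes express, at least 2 of 9 peritoneal genes were found in 4 of 15 Control C1q-gated cells with a resident gene and in 2 of 152 without. Depth differed between these cells: the 4 had 3436 to 19308 UMIs, and its part was not tested. The C1q-gated cells with Clec4f, at 935 and 1595 UMIs, held 0 of the 9. Gata6 and Prg4 are also made by mesothelium. The 7 markers of the stromal gate mix mesothelial genes (Msln, Upk3b) with collagens and other stromal genes. Their sum stood in Control at 865 to 2127 CPM of whole libraries, with all 7 detected. In KO it stood at 0.229 to 0.234 CPM, with Col1a2, Col3a1, Lum and Msln at 0. This sum does not give the level of mesothelial RNA alone. The part of such RNA in these cells was not tested. In the Control C1q-gated cells as a whole the stromal markers reached at most 1 UMI per cell. Barcodes with at least 2 of these markers had been set apart as mixed, so the gate itself limits this value.

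Control C1q-gated cells with and without resident genes also differed in other transcripts, given here as a description over pooled cells with no test. The monocyte receptor Ccr2 had 198 UMIs (454 CPM) in the 152 cells without a resident gene, and 0 UMIs in the 10 cells with 1 and in the 5 with 2 or more. Cd74, the invariant chain of MHC class II, stood at 9726, 2687 and 1175 CPM in cells with 0, 1 and 2 or more. Adgre1, which encodes F4/80, stood at 108, 316 and 326 CPM, and the scavenger receptor Msr1 at 151, 606 and 522 CPM. Axl stood at 160, 105 and 196 CPM and Mrc1 at 98.6, 26.3 and 65.3 CPM. Mertk stood at 34.4, 184 and 97.9 CPM, Stab1 at 75.6, 211 and 131 CPM and Cd38 at 193, 290 and 326 CPM. Behind the levels in cells with resident genes stand at most 11 UMIs for each scavenging gene. One deep barcode gave 19308 of the 30638 UMIs of the cells with 2 or more, including 117 of 118 UMIs of Spp1.

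The scavenging genes were detected in more C1q-gated cells than the resident ones. In Control 1, 72 of 109 C1q-gated cells held at least 1 of the 5, and in Control 2, 44 of 58. Detection of 3 or more was seen in 7 and 9 of these cells, and all 5 were found in 1. Among 167 Control C1q-gated cells, Mertk and Axl met in 7, which was 38.9% of the cells with Mertk and 13.5% of those with Axl. Mertk and Cd38 met in 11, 61.1% of the cells with Mertk and 20.4% of those with Cd38. The part of depth in these shares was not tested.

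The receptor kinase Axl was detected in 436 of 24719 barcodes. It had 252 and 215 UMIs in Control, against 73 and 58 in KO, or 30.4 and 10.5 against 4.25 and 3.24 CPM, so the groups did not overlap and Control 1 stood well above Control 2. C1q-gated cells held it at 156 and 161 CPM for Control and 88.9 and 412 CPM in KO, the latter from 4 and 5 UMIs. It was found in 31.1% of Control C1q-gated cells (exact binomial interval 24.2 to 38.8%) against 0.748% of Control T cells. Stromal cells held it at 104 and 62.4 CPM in Control 1 and 2 and were 184, 16, 0 and 0 cells in Control 1, Control 2, KO 1 and KO 2. Of 183 Axl UMIs in mixed barcodes, 138 were in barcodes that passed the stromal gate. Outside the C1q, stromal and mixed classes, Axl stood at 11.7 and 5.74 CPM for Control and 3.84 and 2.92 CPM in KO.

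Mertk, the kinase related to Axl that marks mature tissue macrophages, had 36 and 25 UMIs in Control, against 1 and 0 in the KO libraries. C1q-gated cells held 26 of its 62 UMIs in kept cells, at 54.5 and 43.6 CPM in Control. Classical monocytes of Control 1 showed 14.8 CPM, but all 6 of those UMIs came from 1 cell, and in Control 2 they stood at 1.84 CPM. Stromal cells held 6 Mertk UMIs and mixed barcodes 15, 9 of them in barcodes that passed the stromal gate.

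Mrc1 was shared with cDC2 cells and Stab1 with endothelial-gated cells. Classical monocytes held 15.7% of the Mrc1 and 15.2% of the Stab1 UMIs. Mrc1 had 47 and 51 UMIs in Control, against 18 and 26 in KO, at 5.67 and 2.48 against 1.05 and 1.45 CPM. C1q-gated cells held 35% of its UMIs, and cDC2 cells held 17.1% at 36.8 and 37.3 CPM in Control. In KO, cDC2 cells stood at 206 and 99.99 CPM from 6 and 10 cells. Stab1 had 70 and 55 UMIs in Control, against 22 and 19 in KO, and its level in Control 1, at 8.44 CPM, was above the 2.68 of Control 2 and the 1.06 to 1.28 of KO. C1q-gated cells held 32.3% of Stab1. The densest Stab1 was in endothelial-gated cells, where 7 cells of Control 1 had 18 UMIs (807 CPM) and 2 cells of KO 2 had 6 UMIs (737 CPM), while the 3 such cells of the other libraries had 0.

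Cd38 was mainly a lymphocyte transcript here. It had 363 and 1170 UMIs in Control, against 967 and 827 in KO, at 43.8 and 57.0 against 56.3 and 46.1 CPM, so the groups overlapped. B cells held 56.4% and T cells 18.8% of its UMIs. Among the classes given here, its level was nevertheless highest in Control C1q-gated cells, at 221 and 192 CPM, followed by B cells at 139 and 162 CPM, plasmacytoid dendritic cells at 102 and 83.8 CPM and T cells at 35.0 and 30.4 CPM. Within each Control library the order of these 4 classes was the same. Classical monocytes lay below them at 14.8 and 11.1 CPM. NK cells, at 21.5 and 62.4 CPM, lay below T cells in Control 1 and above them in Control 2.

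The next comparison asked which of the 10 genes distinguish C1q-gated macrophages from monocytes of the same liver. It was made in the Control libraries, each giving 1 sum per gate with the library as a block, because the KO libraries had too few C1q-gated cells. Vsig4 stood at 29.0 and 104.6 CPM in C1q-gated cells against 0 UMIs in the monocyte gates of either library. Mrc1 stood at 76.2 and 109 CPM from 21 and 25 UMIs, against 1 and 4 UMIs in the monocyte gates. Cd38, at the levels above, had 6 and 13 UMIs in the monocyte gates. In edgeR's quasi-likelihood test with Benjamini-Hochberg adjustment, 6.19% of 4606 genes were higher and 3.89% lower in C1q-gated cells. Among the higher were Cd38 (log2 difference 4.24 ± 0.32, SE, edgeR adjusted p = 2.78e-05), Mrc1 (5.11 ± 0.52, 0.000168), Cd5l (6.54 ± 0.73, 0.000289) and Axl (2.74 ± 0.32, 0.000344). Vsig4 (8.64 ± 0.92, 0.000365), Stab1 (2.97 ± 0.51, 0.00420) and Mertk (3.17 ± 0.68, 0.0140) passed too. Clec4f, Timd4 and Marco were too low to be tested. The filter on low counts lay at 26.8 CPM here, and of the genes tested Axl alone reached it in a monocyte sum. Cd38, Mrc1, Cd5l, Vsig4, Stab1 and Mertk entered the test through the C1q-gated sums, where they are high, so their passing is a description and their number supports nothing. With DESeq2 the adjusted p of Vsig4 was 0.566 and that of Mertk 0.0795. The difference for Vsig4 is no measured fold, because its monocyte counts were 0. Its C1q-gated level was 37.1-fold that of 3 counts over the monocyte gates of the Control libraries.

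**Figure D4:**
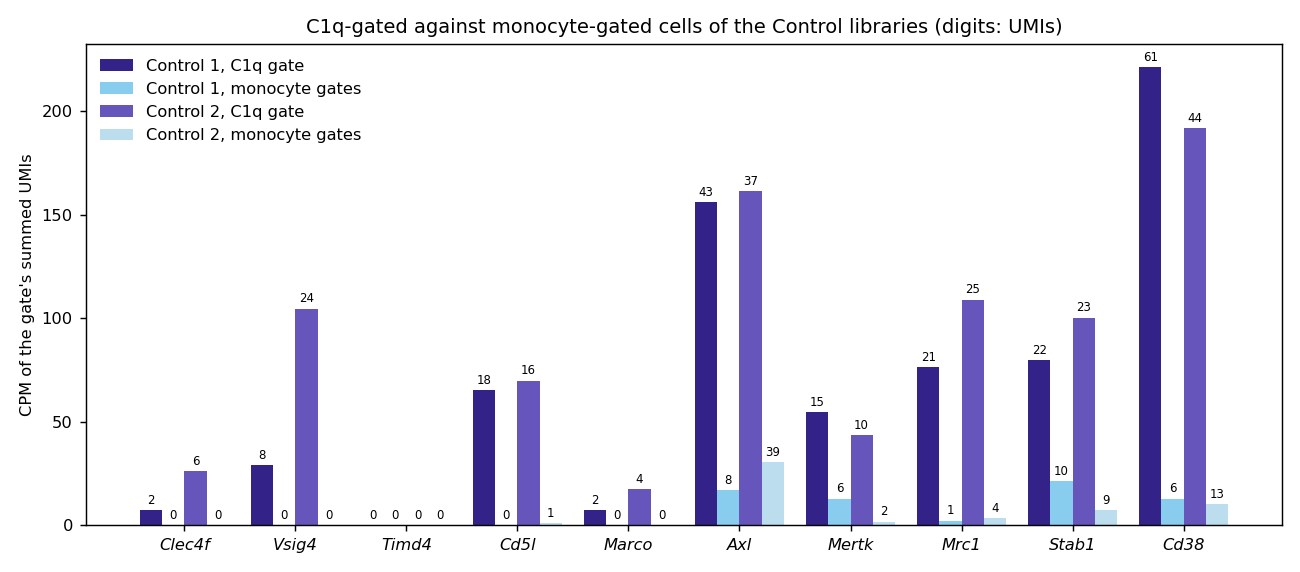
CPM of each gene in the summed C1q-gated and monocyte-gated (classical and patrolling) cells of the Control libraries, with UMIs above the bars. Axl, Mertk, Mrc1, Stab1 and Cd38 stood higher in the C1q gate of each library, and Timd4 was at 0 throughout.

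The other genes of the lists gave the surroundings of these differences. The background was 6.19% of all 4606 genes higher and 3.89% lower in C1q-gated cells. Of 15 other Kupffer cell genes, 6 could be tested and 4 were higher in C1q-gated cells. The proteoglycan Sdc3 (log2 2.12 ± 0.22, edgeR adjusted p = 0.000194) reached the filter in both groups. The tetraspanin Cd81 (4.18 ± 0.34), the liver X receptor Nr1h3 (1.87 ± 0.44) and Folr2 reached it through the C1q-gated sums. Folr2 had 28 UMIs there against 0 in the monocyte gates, at 32.5-fold the level of 3 counts. Of 13 scavenger receptors, 3 of 6 tested were higher, Cd36 and Msr1, which reached the filter in both groups, and Olr1, which did not. Of 20 partners of efferocytosis, the uptake of dying cells, 2 of 11 tested were higher, the cholesterol exporter Abca1 and the integrin Itgb5. Of 12 lipid-associated macrophage genes, all tested, 11 were higher and Lgals3 was lower (-0.67 ± 0.16), and 10 of these 12 reached the filter in both groups. The list of 7 enzymes of NAD and purines had 2 of 4 higher, Bst1, the relative of Cd38, and Entpd1, both through the C1q-gated sums, and the peritoneal list had 0 of 2.

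C1q-gated cells themselves were fewer in KO. Their share of kept cells was 2.31% in Control 1, 0.818% in Control 2, 0.140% in KO 1 and 0.0790% in KO 2, so the groups did not overlap and Control 1 stood far above Control 2. The means were 1.56 ± 1.06% and 0.109 ± 0.0430% (SD, n = 2 each), a ratio of 14.3. The exact permutation test, with both tails, gave p = 0.333, the smallest that 2 against 2 libraries allow, so this design cannot pass a threshold of 0.05. Near the edge of the gate, 30, 16, 4 and 2 of these cells had only 2 of the 3 C1q genes. As a share of all myeloid-gated cells, Control had 17.2% and 8.54% against 2.82% and 1.75% in KO.

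Summed over whole libraries, Axl was lower in KO (log2 fold change -2.34 ± 0.48, SE, edgeR adjusted p = 0.0438). The background was 7.08% of 14327 genes lower and 1.43% higher. Mertk (edgeR adjusted p = 0.0354), Cd5l (0.0331) and Vsig4 (0.0356) were called lower as well. These 3 had at most 1 UMI in each KO library and reached the filter, at 0.578 CPM, through Control alone, so they had to differ, and their fitted log2 values (-6.12 ± 1.13, -5.58 ± 1.002 and -5.01 ± 0.93) depend on a prior count. Clec4f, Timd4 and Marco could not be tested. Stab1 (-2.09 ± 0.57, edgeR adjusted p = 0.0788) and Mrc1 (-1.61 ± 0.49, 0.0961) did not pass, and Cd38 (0.05 ± 0.20, 0.899) did not either. Leaving out either KO library ended the calls of Mertk, Cd5l, Vsig4 and Axl, with edgeR adjusted p from 0.0896 to 0.202 and the same direction. In sums over a library, fewer cells of a type and less RNA per cell cannot be told apart. The summed C1q markers moved with these genes, at 285 and 94.8 CPM for Control and 19.98 and 1.72 CPM in KO, with all 3 detected in each library. The stromal markers named above moved too, and their part in the result was not tested. Mrc1 passed in 3 and Stab1 in 4 of 10 alternatives, among them without Control 2 (edgeR adjusted p of 0.00291 and 0.000212) and with no filter on low counts (0.00590 and 5.09e-05). Outside the C1q gate Mertk still had 21 and 15 UMIs in Control, against 0 in either KO library, and outside the C1q, stromal and mixed classes 11 and 4, with 6 of the 11 in 1 classical monocyte.

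**Figure D5:**
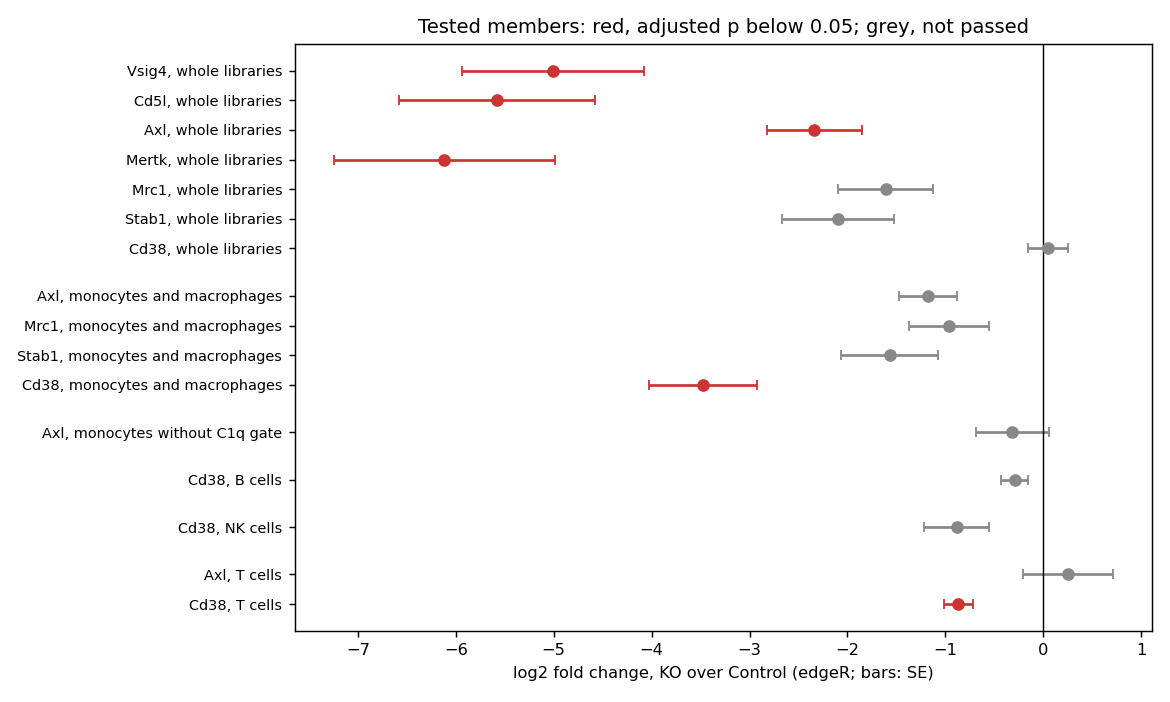
Log2 fold change KO over Control of each of the 10 genes that could be tested, by the cells summed, with the standard error from edgeR; red points passed an adjusted p of 0.05. Mertk, Cd5l, Vsig4 and Axl passed in whole libraries and Cd38 in monocytes with macrophages and in T cells.

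Among monocytes and macrophages summed together, Cd38 was the member called lower in KO. On the TMM-scaled CPM of the fit it stood at 96.1 and 39.1 in Control and 7.96 and 2.78 in KO, so the groups did not overlap. Its log2 fold change was -3.47 ± 0.55 (SE, edgeR adjusted p = 0.0118), against a background of 0.825% of 6911 genes lower and 0.0868% higher. It reached the filter, at 12.2 CPM, through Control alone, where it is high. Over these gates its 124 Control UMIs stood against 9 from KO, and the ratio of the CPM was 9.73 (counting interval 4.96 to 21.8). Axl (-1.18 ± 0.30, edgeR adjusted p = 0.0930), Stab1 (-1.57 ± 0.49, 0.206) and Mrc1 (-0.96 ± 0.41, 0.415) did not pass, and the other 6 were too low to be tested. The sum mixes C1q-gated cells with monocytes, and the C1q markers in it stood at 2647 and 1127 CPM for Control and 347 and 42.8 CPM in KO. The call of Cd38 held under all 12 alternatives, no filter on low counts among them. These reuse the same libraries and do not undo its entry through Control alone, so the call is a description. Axl and Stab1 passed in 4 of 12 alternatives each. Without Control 2 the edgeR adjusted p was 0.00208 for Axl and 0.000878 for Stab1, and without KO 1 it was 0.00431 for Stab1. With no filter it was 0.0204 for Axl and 0.0131 for Stab1. With the C1q-gated cells taken out, Axl alone could be tested, at -0.32 ± 0.37 (edgeR adjusted p = 0.875) with 0.301% of 6634 genes lower and 0.0452% higher.

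Within the C1q gate, levels in CPM were compared over the pooled UMIs of each group, as intervals on counts and with no test. Axl was at 158.5 CPM for Control and 157.6 CPM for KO, a ratio of 1.006 (counting interval 0.504 to 2.28). The KO value pools 88.9 CPM in KO 1 with 412 CPM in KO 2, whose 5 UMIs lay in 1 cell. Cd38 was at 208 and 123 CPM, a ratio of 1.70 (0.795 to 4.32), and Stab1 at 89.1 and 140 CPM, a ratio of 0.636 (0.297 to 1.56). Cd5l had 34 UMIs against 1, a ratio of 3.85 (0.645 to 156), and Mertk 25 against 1, a ratio of 2.83 (0.463 to 116). Vsig4 had 32 UMIs against 0, and its Control level was 1.21-fold the KO limit of 3 counts. The lower end of its counting interval was a ratio of 0.926, below 1. Its UMIs lay in 6 of 167 Control cells. The KO cells of this gate gave only 57112 UMIs against 504858 in Control. Mrc1 was at 91.1 and 52.5 CPM, a ratio of 1.73 (0.558 to 8.72). The intervals of Axl, Cd38, Stab1, Cd5l, Mertk, Mrc1 and Vsig4 all include 1.

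In the monocyte gates the pooled levels of Cd38 and Mrc1 went opposite ways. Cd38 had 6 and 13 UMIs in Control, against 0 and 2 in KO, a Control to KO ratio of 8.33 (counting interval 2.01 to 73.7). Mrc1 had 1 and 4 UMIs in Control, against 8 and 9 in KO, a KO to Control ratio of 3.88 (1.37 to 13.4). Those KO Mrc1 UMIs lay in 5 and 4 classical monocytes. Axl stood at 26.7 CPM for Control and 22.1 CPM in KO monocytes, a ratio of 1.21 (0.763 to 1.94). Summed patrolling markers also moved in these gates, at 542 and 517 CPM for Control and 253 and 198.9 CPM in KO, and their part was not tested.

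Cd38 was the only 1 of the 10 with enough UMIs in lymphocytes, apart from Axl in T cells. In T cells it stood at 35.0 and 30.4 CPM for Control and 18.5 and 17.8 CPM in KO, from 85, 274, 123 and 141 UMIs, so the groups did not overlap. Its log2 fold change was -0.87 ± 0.15 (SE, edgeR adjusted p = 0.0305), with 0.625% of 11205 genes lower and 0.375% higher. The call did not pass with DESeq2 (adjusted p = 0.0986) or without KO 2 (edgeR adjusted p = 0.0585). Summed B cell markers in the T cells stood at 25.5 and 27.9 CPM for Control and 37.5 and 23.4 CPM in KO. Barcodes with at least 2 B cell markers had been set apart as mixed, which limits these values in advance. The part of B cell RNA was not tested. In B cells Cd38 stood at 139 and 162 CPM for Control and 135 and 135 CPM in KO (-0.29 ± 0.14, edgeR adjusted p = 0.430, with 0.473% of 9946 genes lower and 0.131% higher). In NK cells it stood at 21.5 and 62.4 against 35.2 and 25.3 CPM (-0.88 ± 0.33, edgeR adjusted p = 0.219, with 0.790% of 7473 genes lower and 0.535% higher). Whether the effect on Cd38 differs between these classes was not tested. Axl in T cells stood at 2.47 and 2.89 CPM for Control and 4.67 and 2.27 CPM in KO (0.25 ± 0.46, edgeR adjusted p = 0.853). In dendritic cells 0 of the 10 could be tested and 0 of 2845 genes passed (286 at an unadjusted p below 0.05, and 0 with DESeq2).

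Other genes of the same lists also fell in KO. In monocytes and macrophages, where 0.825% of all genes were lower, 1 of 5 tested other Kupffer cell genes fell, Cd81 (log2 -3.00 ± 0.40, edgeR adjusted p = 0.00387), which reached the filter through Control alone. Of 12 tested efferocytosis partners 2 fell, Itgb5 (-1.93 ± 0.27, 0.00646) and Abca1 (-1.97 ± 0.40, 0.0329). Of 12 lipid-associated macrophage genes 5 fell, among them Spp1 (-3.87 ± 0.43) and Trem2 (-1.37 ± 0.22). None of 6 scavenger receptors, 3 peritoneal genes and 4 enzymes of NAD and purines passed. The medians of the 6 lists ran from -1.49 for the lipid-associated list to 0.08 for the efferocytosis list, against -0.01 over all genes. With the C1q gate taken out, 0 genes of the 6 lists passed. In whole libraries, where 7.08% of all genes were lower, 8 of 12 lipid-associated, 7 of 19 efferocytosis, 4 of 12 other Kupffer cell, 4 of 11 scavenger receptor, 2 of 9 peritoneal and 1 of 7 NAD and purine genes fell. Of these, 2 efferocytosis, 1 other Kupffer cell and 2 scavenger receptor genes reached the filter through Control alone. Among them was Gas6, the ligand of Axl and Mertk, at 69.6 and 27.3 TMM-scaled CPM in Control and 0 and 0.232 in KO (edgeR adjusted p = 0.0154), whose fitted log2 value depends on a prior count. The C1q and stromal markers above moved with these lists, and their part was not tested. In T cells, where 0.625% of all genes were lower, 4 of 10 lipid-associated genes fell, Spp1, through Control alone, Fabp5, Plin2 and Apoe, and 0 genes of the other 5 lists. In NK cells Id3, the only other Kupffer cell gene tested, and Apoe fell (background 0.790%), and in B cells Fabp5 (0.473%), each through Control alone.

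The genes whose levels ran most like those of the 5 scavenging genes were found over 34 sums of a library and a class, among 13453 genes, as Pearson's r of log2(CPM + 10). Among the genes like Axl were the chemokine Cxcl16 (r = 0.909) and St6galnac6 (0.857). Mertk ran most like the arginine transporter Slc7a2 (0.938), Chst1 and the gate marker C1qa (0.923). Mrc1 ran most like Clec4b1 (0.839), Cxcl14 and Eng, and Stab1 most like the gate marker C1qb (0.862), Sash1 and Ms4a7. Cd38 ran most like the B cell genes Blnk (0.796) and Cd72 (0.786), then Fam3c. The sums share libraries and depth, so these values describe likeness only.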

How the data were processed

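The deposited files held raw UMI counts per gene and barcode for 2 Control and 2 Cyr61 KO libraries. Per the submitters' processing notes, they were made with Cell Ranger 3.1.0 on mm10, and their barcodes were already filtered, the lowest holding 500 UMIs. No cell annotation was used here. Cells with at least 500 UMIs, 250 genes and at most 25% mitochondrial UMIs were kept. They were sorted by 17 marker gates that exclude the 10 genes, each needing at least 2 markers. Barcodes passing gates of different lineages were treated as possible doublets and left out of the classes, and no doublet caller was run. The counts of each class with at least 20 cells per library were added up and tested with edgeR 4.0.16 (R 4.3.3) by its quasi-likelihood test, with TMM scaling, filterByExpr and Benjamini-Hochberg adjustment over all genes tested at 0.05. Where a sum of a class fell under 20 cells, as for C1q-gated KO cells, no model was fitted and pooled UMIs were compared by exact conditional intervals (95%). CPM is UMIs per 1000000 UMIs of the cells summed, on raw totals unless called TMM-scaled. Totals per library ran from 8290677 to 20537236 UMIs. For levels in CPM a count of 0 was read as up to 3 counts, and shares of cells have exact binomial intervals. As a check, the fit was tested on simulated counts in which 200 genes were changed: in whole libraries (14327 genes) it recovered 27% of 2-fold and 92% of 4-fold changes, and in monocytes with macrophages (6911 genes) 33% and 80%. False calls were 2.46% of calls in whole libraries and 5.04% in monocytes with macrophages. Genes named are the 10 members, at most 4 called genes per list and comparison, and the 3 most alike per member, of which 1 is not reported here. Further genes named in single barcodes or in pooled C1q-gated cells were chosen after their values were seen. The members, gates and lists were chosen with earlier results of these data known. Alternatives were DESeq2 1.42.0, no filter on low counts, a replicate block, each library left out, 3 markers, 1000 UMIs, 10% mitochondrial UMIs, mixed barcodes kept and thinning to 1000 UMIs.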

Additional observations from a re-analysis of the deposited data

How the results depend on the processing

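The calls of the 10 genes kept their direction and side of the threshold in 197 of their alternatives, passed newly in 15, were lost in 12 and changed sign in 7, all 7 without a call. Those were Cd38 in whole libraries without Control 1 (-0.20) and without KO 1 (-0.08; range with 1 library left out -0.20 to 0.36), Axl in monocytes outside the C1q gate without Control 2 (0.26; range -0.53 to 0.26), Cd38 in NK cells without Control 2 (0.31; range -1.22 to 0.31), and Axl in T cells without KO 1 (-0.32; range -0.32 to 0.72), with 3 markers (-0.010) and with mixed barcodes kept (-0.25), all log2. Counts of called genes moved more, and the cause was not tested. In whole libraries (1219) they were 2008 with DESeq2, 3307 with no filter, 2904 with the replicate block and 247 to 5083 with 1 library left out. In monocytes with macrophages (63) they were 29, 231 and 297 in the same order, 185 with 3 markers, 34 at 1000 UMIs, 36 at 10% mitochondrial UMIs and 102 to 285 with 1 library left out. In monocytes outside the C1q gate (23) they were 5 with DESeq2, 69 with no filter, 30 with the block, 6 at 1000 UMIs and 31 to 104. In dendritic cells (0) they were 25 with no filter and 4 to 73. In B cells (60) they were 27 with DESeq2, 197 with no filter, 510 with the block, 39 at 10% mitochondrial UMIs and 12 to 127. In NK cells (99) they were 37 with DESeq2, 107 with the block, 49 with 3 markers, 32 at 1000 UMIs and 51 to 79. In T cells (112) they were 536 with no filter, 1073 with the block, 57 with 3 markers and 149 to 1088. For C1q-gated against monocyte-gated cells, edgeR called 10.1% of 4606 genes and DESeq2 3.41% (116 higher, 41 lower). The KO minus Control difference of the C1q-gated share (-1.45 percentage points) was -10.6 as a share of myeloid-gated cells and -2.20 to -0.709 with 1 library left out. Barcodes with 2 or more resident genes (6) were 1 after thinning. Replicate numbers are shared only as numbers, with correlations of 0.131 to 0.309 between same-numbered deviations over 2 pairs. With the replicate block Mrc1 (0.0462) and Stab1 (0.0119) passed in whole libraries, and Axl (0.00366) and Stab1 (0.00244) in monocytes with macrophages, as edgeR adjusted p. A lone library left in a group is assumed to vary like the others. Dendritic cells with 3 markers (11 cells in the smallest library) and at 1000 UMIs (18 cells) were not run.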
